A study of Mus musculus with 6 samples.

Results

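A set of 9 genes that mark the cytoskeleton, axon and growing tips of neurons was followed through a seizure in the hypothalamic paraventricular nucleus (PVN). They are Tubb3, Thy1, Stmn2, Nefl, Nefm, Map2, Mapt, Gap43 and Uchl1. They were chosen by name with earlier results of these data known, though the rule itself holds no measured value. Every probe set whose only gene symbol is one of these 9 was taken. The array has a probe set of their own for 12393 genes. The 9 were measured by 13 of its 22626 probe sets, with 3 for Mapt, 2 each for Map2 and Stmn2, and 1 for each of the other genes. By the RefSeq annotation of GRCm38.p6, Tubb3 lies at chr8:123411553-123422015, Thy1 at chr9:44043384-44048579, Stmn2 at chr3:8509527-8561604 and Nefl at chr14:68083863-68089095. Nefm lies at chr14:68119545-68125004, Map2 at chr1:66175202-66442583, Mapt at chr11:104229409-104332090, Gap43 at chr16:42248552-42340651 and Uchl1 at chr5:66676121-66687234. All 13 passed the filter on dim probe sets, which asks for a signal at or above the array's own median on at least 2 of the 6 arrays. Of these, 11 did so on all 6 arrays, and 2 Mapt probe sets, 1417885_at and 1424719_a_at, did so on 4.

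The shape of a neuron rests on microtubules built from tubulin, on neurofilaments that set the calibre of axons, and on an actin and membrane skeleton beneath the surface. Proteins that bind microtubules, such as Map2 in dendrites and tau in axons, steady them, while stathmins release tubulin from them. Neurons make far more of some of these proteins, such as the neurofilaments, than glia do, and transcripts of that kind are used to mark neurons in mixed tissue.

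Isoflurane-anesthetized C57Bl/6 mice were given 1 bilateral electroconvulsive shock (ECS) through ear clips, at 25 mA for 1 s with 100 pulses per s of 0.5 ms. The PVN was taken 2 h after the shock in the ECS 2 h group and 6 h after it in the ECS 6 h group. Sham mice were handled alike, received no current and were sampled at 2 h. The labels give neither age nor sex. The nucleus was cut from 7 µm sections with a laser, RNA of 2 to 3 animals was pooled, and each group holds 2 arrays, run with different animals. No sham at 6 h is among these samples, so the seizure and the later hour cannot be told apart at that time. Values are log2 signals after quantile normalization with an offset of 16, which puts the floor at 4, and an SD is that of a group's pair of arrays (n = 2). Changes are log2 differences with the standard error (SE) of limma, fitted to all 6 arrays, and p-values are adjusted over all 12662 tested probe sets.

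The array medians lay between 25.2 and 40.8 in deposited signal. Replicate 1 of the ECS 6 h group stood apart, with a mean rank correlation of 0.887 with the other arrays, against 0.906 to 0.919 for the rest. Its ratio of the 3' to the 5' control probe set of Gapdh was 14.1, against 6.43 to 10.5 elsewhere. The labelled tissue showed its markers: oxytocin (Oxt) lay at a log2 signal of 10.82 to 11.49 and vasopressin (Avp) at 9.55 to 10.15 over the 6 arrays, while Otp, a transcription factor of PVN neurons, did not pass the filter. Among 16 listed genes of cortex and hippocampus neurons, 12 were tested, and their summed signal was 1300 to 1521 at ECS 2 h, 1648 to 2985 at ECS 6 h and 4557 to 4563 in sham. Limma called 0 of these 12 genes (smallest adjusted p = 0.0561 at 2 h and 0.9998 at 6 h against sham), and 4 of them were listed with earlier results of these data known to be low. In tissue of this kind fewer cells of a type and less RNA per cell cannot be told apart.

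At 2 h after ECS the 9 genes did not move as 1 block. Tubb3 was 1.43-fold lower than in sham, Thy1 1.45-fold lower, Nefl 1.26-fold lower and 1 of 2 Stmn2 probe sets 1.30-fold lower, each with both ECS arrays below both sham arrays, an order held by 16.4% of all tested probe sets. The other Stmn2 probe set was 1.23-fold higher, Gap43 1.16-fold higher and Uchl1 1.14-fold higher, each with both ECS arrays above both sham arrays, an order held by 16.3%. Map2, Mapt and Nefm overlapped between the groups. None of the 13 probe sets passed limma's test in any of the 3 comparisons (adjusted p = 0.9997 in ECS 2 h against sham).

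The promoters of Tubb3 and Uchl1 are shown because these genes lay on opposite sides of sham at 2 h. Promoter sequences were at hand for 3 of the 9 genes, Tubb3, Map2 and Uchl1. The Map2 window, which runs into the annotated gene, is not described. Each sequence is the 250 bases before the annotated start on the plus strand of GRCm38.p6, with matches to the searched motifs in capitals.
Tubb3 (chr8:123411303-123411552): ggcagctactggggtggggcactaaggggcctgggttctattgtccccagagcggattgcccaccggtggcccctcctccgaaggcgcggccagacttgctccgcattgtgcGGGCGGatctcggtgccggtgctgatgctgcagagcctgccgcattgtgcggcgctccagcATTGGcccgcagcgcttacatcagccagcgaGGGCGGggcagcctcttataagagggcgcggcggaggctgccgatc
Uchl1 (chr5:66675871-66676120): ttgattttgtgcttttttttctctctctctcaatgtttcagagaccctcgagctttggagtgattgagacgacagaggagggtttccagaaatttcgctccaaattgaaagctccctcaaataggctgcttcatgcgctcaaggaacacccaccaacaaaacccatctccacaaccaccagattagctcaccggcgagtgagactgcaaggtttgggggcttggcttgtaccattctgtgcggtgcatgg
The motifs were searched on both strands, overlaps allowed. They were the GC box GGGCGG, the CCAAT box, the TATA box TATAAA, the AP-1 site TGANTCA, the cyclic AMP element TGACGTCA, the Egr site GCGTGGGCG and the left part TTCAGCACC of the site of the neuronal repressor REST. The Tubb3 window held 2 GC boxes, which begin 138 and 46 bases before the start, and 1 CCAAT box on the minus strand at 77 bases. The Uchl1 window held none of the 7 motifs. The bases G and C made up 68% of the Tubb3 window and 48.8% of the Uchl1 window. Among 32851 promoter windows of that length, 32.7% held a GC box, 33.9% the CCAAT box, 12.4% the TATA box, 6.75% the AP-1 site, 1.55% the cyclic AMP element, 0.536% the Egr site and 0.301% the REST part. A match or its absence in such a window is a description of its letters.

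Tubb3 encodes the neuron-specific beta-tubulin of microtubules. Its log2 signal was 9.99 and 10.14 at ECS 2 h, 10.22 and 10.54 at ECS 6 h, and 10.45 and 10.72 in sham. Both 2 h arrays lay below every other array, whereas the 6 h and sham arrays overlapped. The change was -0.52 ± 0.209 (SE, 95% interval -0.98 to -0.05) at 2 h and -0.21 ± 0.209 at 6 h against sham. Within the replicates the 2 h difference was -0.46 in replicate 1 and -0.58 in replicate 2.

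Map2 binds and spaces microtubules in dendrites. The probe set 1421327_at had log2 signals of 8.62 and 8.68 at ECS 2 h, 7.76 and 8.80 at ECS 6 h, and 8.45 and 9.28 in sham. The sham and 6 h pairs spread widely, with SDs of 0.582 in sham and 0.736 at 6 h, and contained the 2 h values. The lowest values, 7.76 and 8.45, came from the arrays with the highest 3' to 5' ratios of Gapdh, 14.1 and 10.5. The change was -0.22 ± 0.402 at 2 h and -0.58 ± 0.402 at 6 h against sham. The other probe set of the same gene, 1421328_at, ranged from 8.02 to 8.51 over the 6 arrays, with changes of -0.10 at 2 h and -0.18 at 6 h.

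Mapt encodes tau, which binds microtubules of the axon. The probe set 1424718_at had log2 signals of 6.85 and 6.87 at ECS 2 h, 7.28 and 7.14 at ECS 6 h, and 7.61 and 6.58 in sham. The sham pair enclosed both other groups, and both 6 h arrays lay above both 2 h arrays. The changes against sham were -0.24 ± 0.408 at 2 h and 0.11 ± 0.408 at 6 h. The probe set 1417885_at followed the replicate number in 2 groups, at 5.03 in replicate 1 and 6.64 in replicate 2 of ECS 6 h and at 5.13 and 7.19 in sham, but at 6.73 and 6.57 in ECS 2 h. Its 95% interval at 2 h, -1.004 to 1.99, was the widest of the 13. Its lowest arrays, at 5.03 and 5.13, also had the highest 3' to 5' ratios of Gapdh, 14.1 and 10.5. The same ratio of Actb was highest, at 0.771, on ECS 2 h replicate 1. The part of RNA quality in these values was not tested. The third, 1424719_a_at, lay between 5.33 and 6.34 with the groups overlapping in all 3 comparisons.

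Stmn2 encodes a stathmin of growing neurites that destabilizes microtubules. Its 2 probe sets, designed from 1 sequence, went opposite ways at 2 h. The log2 signal of 1423281_at was 8.53 and 8.50 at ECS 2 h, 8.61 and 8.56 at ECS 6 h, and 8.94 and 8.84 in sham. All 4 ECS arrays lay below both sham arrays, with changes of -0.38 ± 0.278 at 2 h and -0.31 ± 0.278 at 6 h. The log2 signal of 1423280_at was 8.70 and 8.62 at ECS 2 h, 8.09 and 8.05 at ECS 6 h, and 8.51 and 8.21 in sham. Here the 2 h arrays lay above sham (0.30 ± 0.300) and the 6 h arrays below it (-0.29 ± 0.300). The 6 h minus 2 h change of this probe set was -0.59 ± 0.300 (95% interval -1.25 to 0.07, limma adjusted p = 0.9989), against 0.07 ± 0.278 for 1423281_at. Both probe sets placed ECS 6 h below sham, and they lay on opposite sides of it at ECS 2 h.

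Nefl and Nefm encode the light and medium neurofilament subunits, which assemble together in axons and lie next to each other on chromosome 14. Nefl had log2 signals of 10.66 and 10.65 at ECS 2 h, 10.63 and 10.86 at ECS 6 h, and 11.05 and 10.92 in sham. All 4 ECS arrays lay below both sham arrays, by -0.33 ± 0.173 at 2 h and -0.24 ± 0.173 at 6 h. Nefm had log2 signals of 7.78 and 6.93 at ECS 2 h, 7.85 and 7.34 at ECS 6 h, and 7.87 and 7.51 in sham. Replicate 1 was above replicate 2 in each group, and all 3 groups overlapped. The Nefm changes were -0.33 ± 0.398 at 2 h and -0.09 ± 0.398 at 6 h, the last positive with the values as deposited (0.00) or with median subtraction (0.03).

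Thy1 encodes a small glycoprotein on the surface of neurons and their axons. Its log2 signal was 9.77 and 9.68 at ECS 2 h, 9.93 and 9.99 at ECS 6 h, and 10.32 and 10.19 in sham. The groups did not overlap, in the order sham, ECS 6 h, ECS 2 h from high to low. The change was -0.53 ± 0.208 (95% interval -0.99 to -0.07) at 2 h and -0.30 ± 0.208 at 6 h against sham, and 0.24 ± 0.208 at 6 h against 2 h. With any single array left out the 2 h change stayed between -0.61 and -0.47.

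Gap43 encodes a membrane protein of growth cones and regrowing axons. Its log2 signal was 10.44 and 10.78 at ECS 2 h, 10.33 and 10.22 at ECS 6 h, and 10.38 and 10.41 in sham. The 2 h arrays were the highest, with replicate 2 well above replicate 1, and the 6 h arrays were the lowest. The change was 0.21 ± 0.197 at 2 h, or 0.04 without ECS 2 h replicate 2 and 0.38 without ECS 2 h replicate 1, and -0.12 ± 0.197 at 6 h against sham, where it turned to 0.06 with the values as deposited and to 0.09 with median subtraction. Uchl1 encodes an abundant ubiquitin hydrolase of neurons. Its log2 signal was 10.15 and 10.04 at ECS 2 h, 10.06 and 10.02 at ECS 6 h, and 9.85 and 9.96 in sham. All 4 ECS arrays lay above both sham arrays, by 0.19 ± 0.206 at 2 h and 0.14 ± 0.206 at 6 h, and over the 6 arrays it spanned 0.30 on the log2 scale, the narrowest range of the 13 probe sets.

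**Figure D1:**
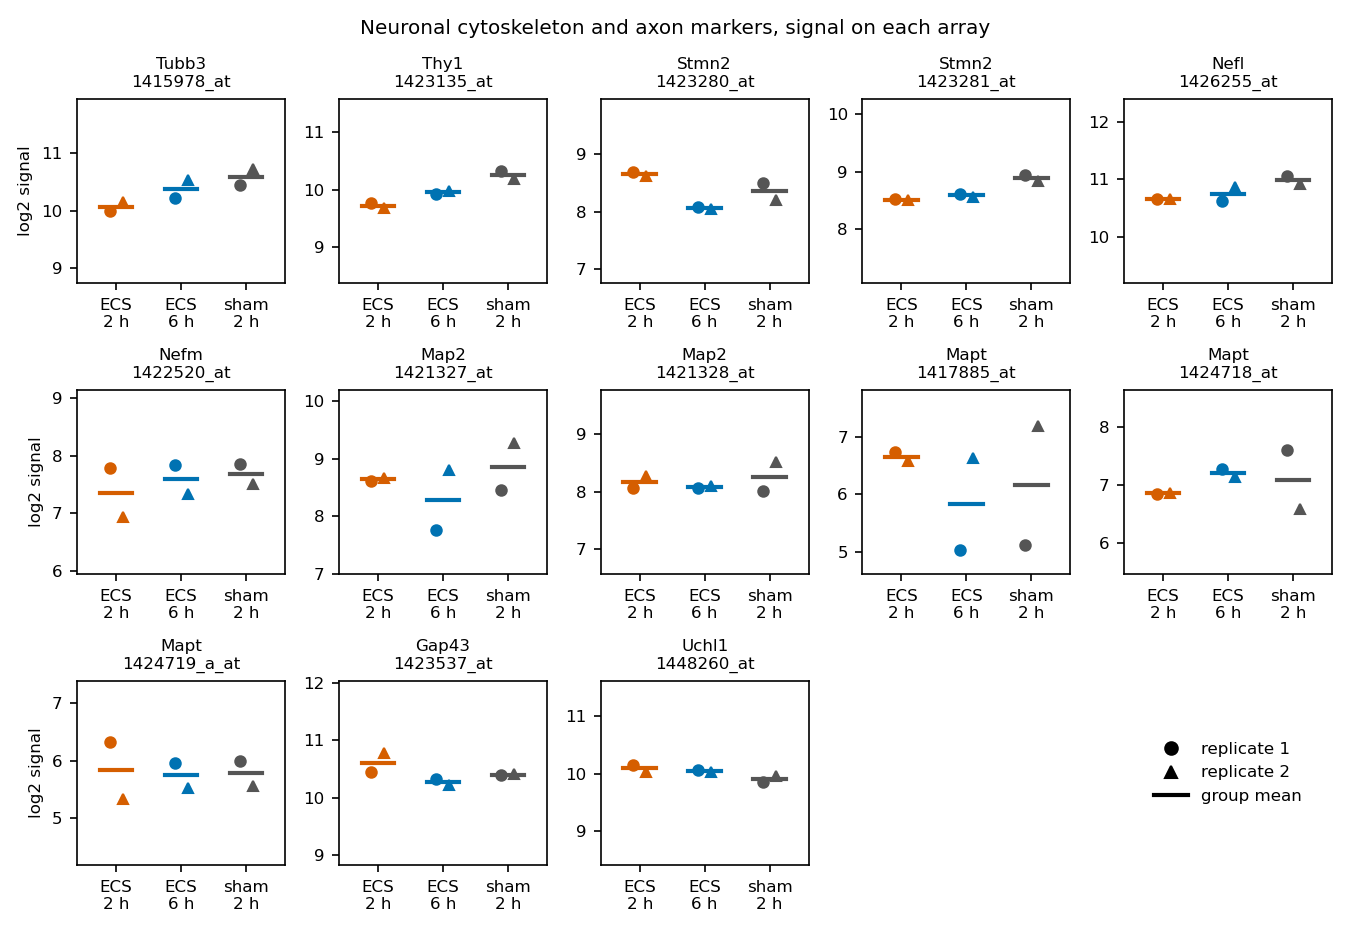
Log2 signal of each of the 13 probe sets on each array (circles replicate 1, triangles replicate 2, bars the group mean of 2 arrays; each vertical axis spans the same number of log2 units). Tubb3, Thy1, Nefl and Stmn2 1423281_at have their lowest group mean at ECS 2 h and their highest in sham, as has Nefm, whose groups overlap. Uchl1 is lowest in sham, and Mapt 1417885_at separates by replicate in ECS 6 h and sham.

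The comparison of ECS 2 h with sham asks which of these transcripts differ early after the seizure. Of the 13 probe sets 8 were lower and 5 higher, with a median change of -0.22, against 6221 lower of the 12662 tested (49.1%) and a median of 0.01 over all tested. In 4 probe sets both ECS arrays lay below both sham arrays, an order held by 16.4% of all tested probe sets, and in 3 both lay above, as in 16.3%. Limma called 0 of the 13, as it called 0% of all tested probe sets, and a fit blocked on replicate number called 4 over the whole array and 0 of the 13. Tubb3 and Thy1, both lower, were the 2 of the 13 with an unadjusted p under 0.05, which 507 of 12662 had (4.0%), 2.28% as lower and 1.72% as higher. With the replicate block 3 of the 13 had one. The number was 0 without ECS 2 h replicate 1, without ECS 2 h replicate 2, with the values as deposited, with median subtraction and with no variance trend. It was 1 with trimmed mean scaling and without sham replicate 1. Among all tested probe sets 10.5% had a lower change than Tubb3 and 9.94% a lower one than Thy1.

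The comparison of ECS 6 h with sham asks what remains later. There were 11 probe sets lower and 2 higher, with a median of -0.21, against 6380 lower of 12662 (50.4%) and a median of 0.00 over all tested. Both ECS arrays lay below both sham arrays in 5 probe sets, namely those of Thy1, Stmn2 (both), Nefl and Gap43, and in 15.3% of all tested, and above them in 1, Uchl1, and in 14.8% of all tested. Limma called 0 of the 13 and 0% of all tested, and 0 of the 13 had an unadjusted p under 0.05, against 475 of 12662 (3.75%), 2.05% as lower and 1.71% as higher. The median of the 13 was -0.01 with median subtraction, where all tested probe sets had a median of 0.10, and -0.04 with the values as deposited, where it was 0.08. Relative to all tested probe sets it was -0.11 in both cases, and -0.20 with quantile normalization.

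Between ECS 6 h and ECS 2 h, 7 of the 13 were lower and 6 higher, with a median of -0.05 against -0.01 over all tested, of which 51.0% were lower. With the values as deposited the median was 0.17, where that of all tested was 0.16. The 6 h arrays were all above the 2 h arrays in 4 probe sets, those of Tubb3, Thy1, Stmn2 1423281_at and Mapt 1424718_at, an order held by 14.4% of all tested. They were all below in 2, Stmn2 1423280_at and Gap43, as in 15.0% of all tested. Limma called 0 of the 13 and 0% of all tested, and 0 of the 13 had an unadjusted p under 0.05, against 438 of 12662 (3.46%), 1.84% as lower and 1.62% as higher. The 3 comparisons share their groups, so their changes are not independent of each other.

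**Figure D2:**
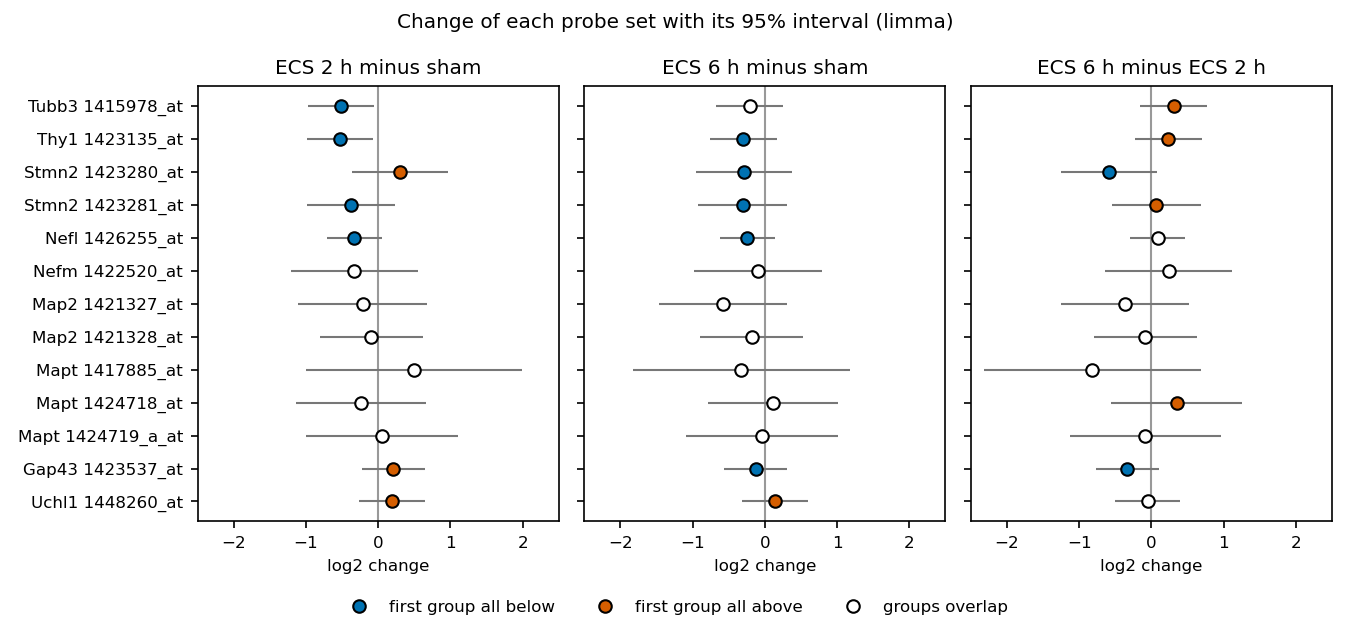
Log2 change of each probe set with its 95% interval from limma, in each of the 3 comparisons. Filled points mark probe sets whose arrays did not overlap between the groups (blue below, orange above), and at 2 h against sham the intervals of Tubb3 and Thy1 alone lie wholly below 0 before any adjustment for the number of tests.

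The members differed in how far they followed one another. Taking the brightest probe set of each gene, the Pearson correlation over the 6 arrays with the mean of the other 8 genes was 0.95 for Nefl, 0.94 for Thy1, 0.91 for Stmn2 1423281_at and 0.61 for Tubb3. It was 0.05 for Nefm, -0.06 for Mapt, -0.10 for Map2, -0.56 for Gap43 and -0.87 for Uchl1. These 6 points share their groups and replicates, and the correlations describe them without a test. The mean of the 9 centred profiles was -0.07 and -0.13 at ECS 2 h, -0.08 and 0.01 at ECS 6 h, and 0.17 and 0.11 in sham, so both sham arrays were the highest.

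The 5 genes most like that mean profile, among 4572 others with a tested probe set that spans at least 1 log2 unit, were Stx1a (r = 0.99), Igfbp4 (0.98), Cplx2 (0.98), Cplx1 (0.97) and Osbpl1a (0.97). Stx1a, the syntaxin of synaptic vesicle fusion, had log2 signals of 7.63 and 7.27 at ECS 2 h, 7.49 and 7.81 at ECS 6 h, and 8.84 and 8.56 in sham. Cplx1 and Cplx2 are complexins, which clamp and trigger that fusion, and Igfbp4 binds insulin-like growth factors. Their changes at 2 h against sham ran from -0.97 for Cplx2 to -3.21 for Igfbp4, and the span required of them favours genes that vary more than the 9 markers.

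Other genes of the cytoskeleton and axon were counted from lists, with 1 probe set a gene. The lists are not of neurons alone and also hold genes of other cells, such as Gfap and Vim. Limma called 0 of their genes in each comparison. At 2 h 8 of 9 tubulin genes were lower than in sham, with a median of -0.16, against 49.1% of all tested probe sets lower. In 6 of the 9 both ECS arrays lay below both sham arrays, an order that 16.4% of all tested probe sets had. Tubb4a, a beta-tubulin of brain, lay at 9.37 and 9.69 at ECS 2 h against 10.27 and 10.56 in sham (-0.88 ± 0.228, adjusted p = 0.692). The exception was Tubb6, a broadly expressed beta-tubulin, at 6.21 and 7.05 against 4.43 and 6.17 (1.33 ± 0.574). The tubulin count was 8 of 9 under each of the 4 scalings. At 6 h it was 6 of 9, but 0 of 9 with the values as deposited or median subtraction and 3 of 9 with the trimmed mean, so no direction is given. At 6 h Tubb6 was at 0.79 ± 0.574 and Tubb2a at -0.10 ± 0.114, both with overlapping arrays. Tubulin genes resemble each other in sequence, and signals of probe sets such as that of Tubb2a can be shared between them.

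Growth cone proteins had 13 of 15 genes lower at 2 h, with a median of -0.30, and 7 had both ECS arrays below both sham arrays, against 49.1% lower and 16.4% in that order among all tested probe sets. Cap2, an actin-regulating cyclase-associated protein, was at 7.65 and 8.60 at ECS 2 h against 9.24 and 9.56 in sham (-1.27 ± 0.347, adjusted p = 0.790). Rtn4, which encodes the neurite growth inhibitor Nogo, was at 11.01 and 11.09 against 11.64 and 11.35 (-0.45 ± 0.156). At 6 h 11 of 15 were lower with a median of -0.19, Rtn4 among them at -0.34 ± 0.156, and Gprin1, a growth cone partner of G proteins, was at -1.10 ± 0.526 with overlapping arrays. Stmn1, Stmn3 and Stmn4, the other stathmins, were all lower at 2 h, with Stmn1 at -0.17 ± 0.135 and Stmn3 at -0.17 ± 0.174. At 6 h they were all lower too (median -0.17), with Stmn1 at -0.20 ± 0.135 and Stmn4 at -0.17 ± 0.176. With median subtraction or the values as deposited they were all higher than in sham. Their changes then still lay below the median change of all tested probe sets.

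Genes that modify tubulin or phosphorylate tau had 9 of 14 lower at 2 h (median -0.25) and 12 of 14 at 6 h (median -0.19). Cdk5r1, the activator of the neuronal kinase Cdk5, was at -0.73 ± 0.375 at 2 h, and Kat2b, an acetyltransferase, at -0.78 ± 0.381. At 6 h Cdk5r2, a second activator of Cdk5, was at 9.42 and 10.42 against 10.65 and 10.65 in sham (-0.73 ± 0.300), and Hdac6, the tubulin deacetylase, was at -0.82 ± 0.407. Microtubule-associated proteins were evenly split, with 8 of 16 lower at 2 h and 7 of 16 at 6 h. Among them Clip2, a protein of microtubule ends, was at -0.71 ± 0.385 and Map1b at -0.53 ± 0.441 at 2 h. At 6 h Mapre1, which tracks growing microtubule ends, was at 0.70 ± 0.470 and Map1s at 0.82 ± 0.571. Map1s passed the filter through ECS arrays alone, which favours a higher value after ECS. Intermediate filament genes were split as well, with 3 of 6 lower at 2 h and 2 of 6 at 6 h. At 2 h Plec, the linker plectin, was at -0.61 ± 0.450 and Gfap, the astrocyte filament, at 0.14 ± 0.350. In that list Dst, a linker of filaments, was at -0.81 ± 0.327 and Vim, the filament of glia and vessels, at 0.40 ± 0.271 at 6 h.

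Axonal transport motors had 15 of 22 lower at 2 h, with a median of -0.11, and 11 of 22 at 6 h. Kif3c, a kinesin, was at -0.63 ± 0.374 and the kinesin light chain Klc1 at -0.39 ± 0.259 at 2 h. At 6 h Dync1li1, a dynein chain, was at 0.83 ± 0.466 and Kif17, a dendritic kinesin, at 0.79 ± 0.453. Both genes passed the filter through ECS arrays alone, which favours a higher value after ECS. Axonal adhesion molecules had 8 of 11 lower at 2 h (median -0.23), with Cntnap2 at -0.70 ± 0.383 and Cadm1 at 0.34 ± 0.249, and 7 of 11 at 6 h, with Nrcam at -0.81 ± 0.504 and L1cam at 0.37 ± 0.337. The spectrin and ankyrin scaffold had 6 of 10 lower at both times, with Sptan1, alpha spectrin, at 8.65 and 8.48 at ECS 2 h against 9.22 and 9.26 in sham (-0.68 ± 0.289). Add1, adducin, was at -0.55 ± 0.308 at 2 h, and at 6 h Sptbn1 was at -0.26 ± 0.281 and Epb41l3 at 0.27 ± 0.329. The actin list had 13 of 19 lower at 2 h and 11 of 19 at 6 h. Wasf1, which promotes actin branching, was at 8.52 and 9.16 at ECS 2 h against 9.89 and 9.79 in sham (-0.998 ± 0.277, adjusted p = 0.835), and Gsn, the actin-severing gelsolin, at -1.29 ± 0.402. At 6 h Cttn, cortactin, was at 0.65 ± 0.317 and Arpc5, of the Arp2/3 complex, at 0.54 ± 0.308. The ubiquitin list had 6 of 9 lower at both times, with Uchl5, a relative of Uchl1, at -0.58 ± 0.329 and Nedd8 at -0.22 ± 0.224 at 2 h. At 6 h Nedd8 was at -0.36 ± 0.224 and Ubqln1 at 0.35 ± 0.279.

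With the values as deposited the 6 h median turned positive for the tubulins (0.13), stathmins (0.02), actin list (0.11), adhesion molecules (0.06), spectrin and ankyrin list (0.05) and other pan-neuronal genes (0.05). It stayed below 0 for growth cone proteins (-0.07), tubulin-modifying enzymes (-0.14) and the ubiquitin list (-0.001). All tested probe sets then had a median of 0.08. Relative to it the tubulins (0.06) and actin list (0.03) were higher. The stathmins (-0.06), adhesion molecules (-0.015), spectrin and ankyrin list (-0.02) and other pan-neuronal genes (-0.02) were lower. The 6 h counts of several lists also rested on ECS 6 h replicate 1, the array that stood apart. Without it the genes lower than in sham were 1 of 10 in the spectrin and ankyrin list, 6 of 19 in the actin list and 4 of 11 among adhesion molecules. The 11 of 14 other pan-neuronal genes that were lower at 6 h became 6 of 14. Of the 13 marker probe sets 11 were lower with all arrays, 10 without ECS 6 h replicate 1 or without sham replicate 2, and 9 without ECS 6 h replicate 2, without sham replicate 1, with the values as deposited or with median subtraction. Without ECS 6 h replicate 2, 1 of the 13 had an unadjusted p under 0.05.

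**Figure D3:**
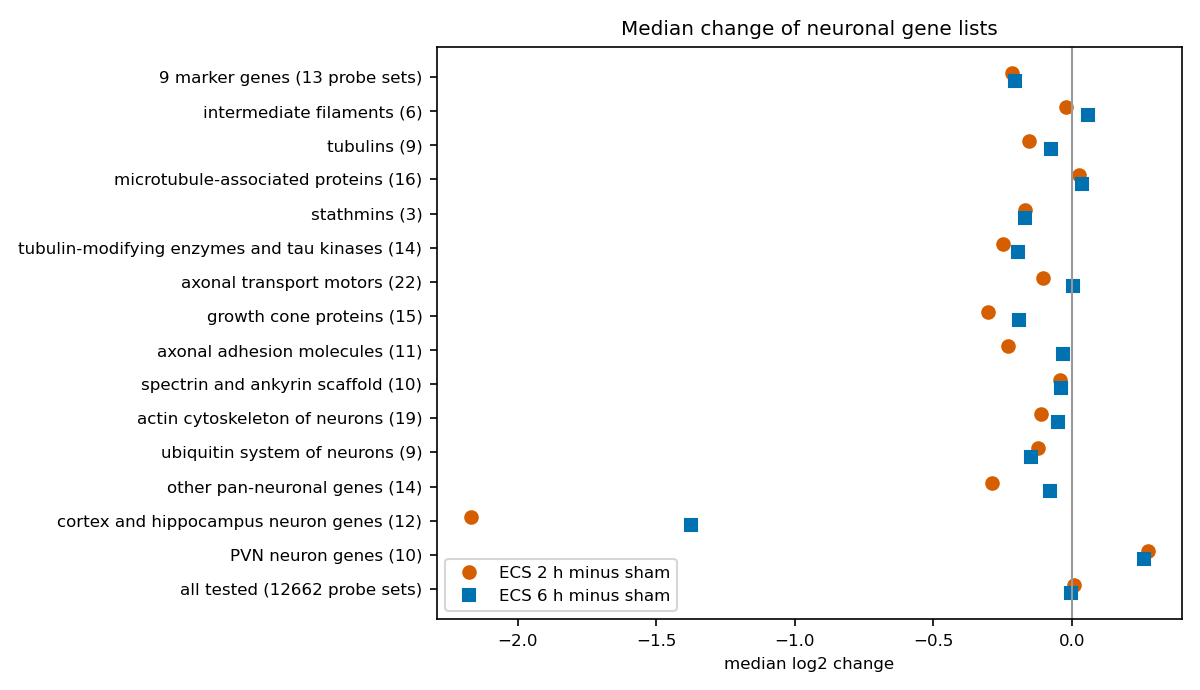
Median log2 change of the 13 probe sets, of each list of cytoskeleton, axon or neuron genes and of all tested probe sets, at ECS 2 h (circles) and ECS 6 h (squares) against sham. The 13 probe sets lie at -0.22 and -0.21, the growth cone and other pan-neuronal lists at -0.30 and -0.29 at 2 h, and the cortex and hippocampus genes at -2.17 and -1.38.

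Other pan-neuronal genes, such as those of synaptic vesicles and RNA binding, had 11 of 14 lower at 2 h, with a median of -0.29. Limma called 0 genes of this and of the cell type lists that follow, in each comparison. Snap25, of the vesicle fusion machinery, was at -0.46 ± 0.120 (adjusted p = 0.692) and Syt1, its calcium sensor, at -1.46 ± 0.447 (adjusted p = 0.969). At 6 h Snap25 was at -0.26 ± 0.120 and Vsnl1, a calcium sensor, at -0.37 ± 0.176. Genes of cortex and hippocampus neurons had 11 of 12 lower, with a median of -2.17 at 2 h and -1.38 at 6 h, or -0.83 at 6 h without ECS 6 h replicate 1. That list holds Kalrn, Camk2a, Mef2c and Cck, which earlier results of these data had shown low. The other 8 genes had a median of -0.95 at 2 h and -1.18 at 6 h, with 7 lower each time. Itpka, among those 8, passed the filter through its sham arrays alone, which favours a lower value after ECS. Fezf2, Tbr1, Lamp5 and Nrgn, also among them, passed it through sham arrays and ECS 6 h replicate 2. Neither of their ECS 2 h arrays reached its median, which favours a lower value at 2 h. Neurod6 and Neurod2 of the list did not pass it. Kalrn, a dendritic spine exchange factor, lay at 7.43 and 7.02 at ECS 2 h against 10.58 and 10.01 in sham, and Camk2a, a synaptic kinase, at 5.73 and 6.78 against 8.88 and 9.11. At 6 h Kalrn was at -1.58 ± 0.388 and Mef2c, a transcription factor, at -2.34 ± 0.693. Of 10 PVN neuron genes 2 were lower at 2 h and 1 at 6 h, and the ECS pair was wholly above the sham pair in 2 of them at 2 h, against 16.3% of all tested probe sets, and in 4 at 6 h, against 14.8%. Scg2 is counted in this list and among the pan-neuronal genes. At 2 h the hormone genes Trh and Sst were at 0.70 ± 0.318 and 0.75 ± 0.341, and at 6 h Oxt was at 0.42 ± 0.189 and Scg2 at 0.71 ± 0.349. Their summed signal was 8047 to 8298 at ECS 2 h, 8306 to 8384 at ECS 6 h and 5651 to 7119 in sham. The part of these shifts in the values of Tubb3, Thy1, Nefl and Stmn2 was not tested.

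Among the non-neuronal lists, astrocyte markers had 6 of 12 lower at 2 h (median 0.01), with a summed signal of 6859 to 7723 at ECS 2 h against 6956 to 7283 in sham. The glutamate transporter Slc1a3 was at 0.59 ± 0.247 and Fgfr3 at 0.56 ± 0.378 at 2 h, and Sox9 was at 0.90 ± 0.422 and Slc1a2 at -0.85 ± 0.417 at 6 h. Oligodendrocyte markers had 4 of 6 lower (median -0.28) and 6 of 6 at 6 h, with a summed signal of 3034 to 3119 at ECS 2 h, 2489 to 2723 at ECS 6 h and 3347 to 3670 in sham. The myelin genes Cldn11 and Mbp were at -0.80 ± 0.369 and -0.34 ± 0.193 at 2 h, and at -1.09 ± 0.369 and -0.64 ± 0.193 at 6 h. At 2 h microglia markers had 4 of 8 lower (median -0.07) and endothelial and mural markers 2 of 8 (median 0.30). C1qc was at -0.88 ± 0.397 and Csf1r at -0.39 ± 0.430 at 2 h, and C1qc was at 1.13 ± 0.397 and Tyrobp at -0.60 ± 0.351 at 6 h. Among vessel markers Acta2 was at -0.90 ± 0.495 and Slco1a4 at -0.61 ± 0.365 at 2 h, and Acta2 was at -1.49 ± 0.495 and Pdgfrb at 0.97 ± 0.404 at 6 h. Acta2 passed the filter through its sham arrays alone, with deposited signals of 1.2 to 13.9 on the ECS arrays. Pdgfrb, Esam and Tek of that list passed it through ECS arrays alone. Such a passage favours a lower value after ECS for Acta2 and a higher one for the others. No marker of these lists was at 0 on all 6 arrays. Mog, Mag and Sox10 among the oligodendrocyte markers and Cx3cr1, Itgam and Trem2 among the microglia markers did not pass the filter. Nor did Pecam1, Cdh5 and Kdr among the endothelial and mural markers and Foxj1 among the ependymal ones. Of 6 ependymal markers 1, Rarres2, was tested, at 0.62 ± 0.419 at 2 h and 0.44 ± 0.419 at 6 h. Their part in the values of the 9 genes was not tested.

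**Figure D4:**
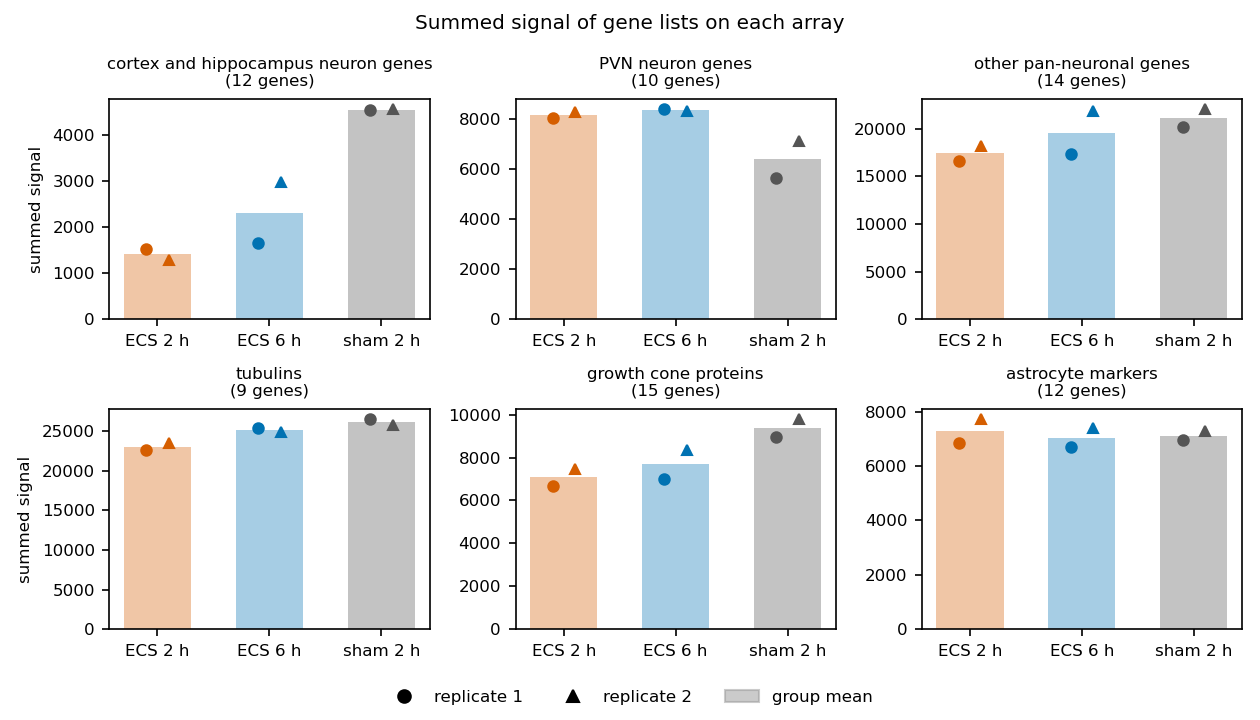
Summed normalized signal of 6 gene lists on each array (circles replicate 1, triangles replicate 2, bars the mean of 2 arrays, axes from 0). The cortex and hippocampus genes fall in separate ranges, 1300 to 1521 at ECS 2 h, 1648 to 2985 at ECS 6 h and 4557 to 4563 in sham, while the astrocyte markers overlap between groups.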

How the data were processed

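Expression was measured on 6 Affymetrix mouse arrays in 3 groups of 2. The deposited numbers are array intensity, and MAS5 is the tool that the submitters' processing notes name. The sources used here give no version, scaling target or presence calls. Of 22690 rows, 64 controls were left out. Deposited array medians differ, so quantile normalization was applied, 16 was added and log2 taken, which shrinks changes of dim probe sets. The 12662 probe sets (56%) at or above their array's median on at least 2 arrays were tested with limma 3.58.1 in R 4.3.3 (group means, variance trend, Benjamini-Hochberg at 0.05, two-sided). Nothing in the labels pairs the groups by animal. By the design text the experiment was done in 2 runs, which the replicate numbers were taken to mark, and deviations of replicate 1 correlated by 0.23, 0.18 and 0.15 between groups, so a fit with the replicate as a block was an alternative. An exact permutation test of 2 against 2 arrays cannot go below 0.333. The number of arrays limits the precision. No 2 arrays were identical. The procedure was tested on simulated data for ECS 2 h against sham. It recovered 2.54% of the 2-fold changes put in, 28.0% of the 4-fold and 57.7% of the 8-fold ones. A call of 0 therefore says little about changes of 4-fold or less, and 8-fold changes were also missed in part. Other alternatives were the offset, scaling, filter, trend, array weights, arrays used and the probe sets per gene.

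Symbols came from the array annotation and 20351 of 20380 matched RefSeq by Entrez identifier. Named genes were all members, the 2 of smallest p per list at 2 h and at 6 h against sham, and the 5 most alike. The members and lists were chosen with earlier results of these data known. Promoters came from RefSeq (GRCm38.p6).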

Additional observations from a re-analysis of the deposited data

Results flagged for a closer look

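The Stmn2 probe set 1423280_at had both ECS 2 h arrays above both sham arrays and both ECS 6 h arrays below them, with a 6 h minus 2 h change of -0.59. Gap43 showed the same order, with a change of -0.33. Singly, the 2 h order was held by 16.3% and the 6 h order by 15.3% of all tested probe sets. The share that held both was not counted, so the order is not shown to be particular to these genes. The difference between the times did not pass limma's test for either (adjusted p = 0.9989 for both), and the other Stmn2 probe set did not share the order. Against sham, Gap43 at 6 h changed sign with 2 other scalings.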

How the results depend on the processing

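No alternative brought any of the 13 probe sets past limma's threshold in any comparison. Of the recomputed changes of the 13, 622 kept their direction and side of the threshold and 35 turned their sign, none of them a called value. Over the whole array limma called 0 probe sets at 2 h against sham, but 1 with no scaling, 1 with median subtraction, 2 with array weights, 4 with the replicate block and 7 when fitted to just those 4 arrays, and 0 to 10 with 1 array left out (10 without ECS 6 h replicate 1 and 10 without ECS 6 h replicate 2). With 1 array left out it called 0 to 6 at 6 h against sham and 0 to 3 at 6 h against 2 h, in both cases most without ECS 6 h replicate 2, and the replicate block called 0 in both. Leaving out an array of 1 group leaves a lone sample that is assumed to vary like the other groups. The cause of these differences was not tested.

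The median change of the 13 at 2 h was -0.329 with the brightest probe set of each gene and -0.263 to -0.166 with 1 array left out. At 6 h against sham it was -0.0361 with no scaling, -0.0106 with median subtraction and -0.273 to -0.156 with 1 array left out. At 6 h against 2 h it was 0.166 with no scaling, 0.0721 with median subtraction, 0.0898 with the brightest probe sets and -0.110 to 0.0830 with 1 array left out. With no scaling, signs turned for Mapt 1424719_a_at at 2 h (-0.0755), Nefm (0.00222) and Gap43 (0.0618) at 6 h against sham, and Map2 1421328_at (0.109), Mapt 1424719_a_at (0.0400) and Uchl1 (0.166) at 6 h against 2 h. With median subtraction they turned for Nefm (0.0277) and Gap43 (0.0873) at 6 h against sham, and Map2 1421328_at (0.0153) and Uchl1 (0.0721) at 6 h against 2 h. With trimmed mean scaling Mapt 1424719_a_at at 2 h was -0.00520.

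With 1 array left out, changes at 2 h crossed 0 for Map2 1421327_at (-0.625 to 0.198), Map2 1421328_at (-0.346 to 0.145), Mapt 1417885_at (-0.544 to 1.51), Mapt 1424718_at (-0.751 to 0.283), Mapt 1424719_a_at (-0.459 to 0.551) and Nefm (-0.761 to 0.0932). At 6 h against sham they did for Map2 1421328_at (-0.432 to 0.0594), Mapt 1417885_at (-1.37 to 0.702), Mapt 1424718_at (-0.402 to 0.635), Mapt 1424719_a_at (-0.253 to 0.189) and Nefm (-0.347 to 0.161). At 6 h against 2 h they did for Map2 1421327_at (-0.889 to 0.151), Map2 1421328_at (-0.190 to 0.0214), Mapt 1424719_a_at (-0.585 to 0.425), Nefl (-0.0270 to 0.206), Nefm (-0.188 to 0.666) and Uchl1 (-0.110 to 0.00295). Tubb3, Thy1, Nefl, Stmn2, Gap43 and Uchl1 kept their sign at 2 h in every alternative run.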
